A study of Mus musculus with 4 samples.

Results

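The 8 genes described here lie on the Myc-bearing part of mouse chromosome 15: Mtss1, Sqle, Trib1, Myc, Pvt1, Asap1, Ndrg1 and Ptk2, in order along the chromosome. They are 8 of the 49554 genes that the RefSeq table of GRCm38.p6 places on chromosomes 1 to 19 and X, and they hold 192 of the 77713 peak summits of those chromosomes. The peaks come from ChIRP of Malat1, in which a nuclear RNA is captured with biotinylated antisense oligonucleotides and the DNA recovered with it is sequenced. The labels give 4 libraries of 4T1-TGL, a line of mouse breast cancer cells from the BALBC strain, all 4 marked WT and with no treatment named: Malat1 pull-downs titled Even and Odd, a pull-down titled Lacz, and an input. Each group is 1 library, and the deposited peak list is a single one, of a merged treatment against input. The sources used here do not say which pull-downs were merged, so no value below has a replicate error and no library is compared with another. RNA was not measured, so the identity of the line could not be checked against marker genes.

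A summit was counted for a gene when it lay in the gene body or within 5 kb of either end, and the gene was compared with the 1 Mb on each side beyond that. The region had been picked out from this same list by the number of summits and the input level of the 1 Mb window that holds Myc. Counts, densities and input levels are therefore given as a description and without a test. The merged treatment held 851227 tags after duplicate removal and the input 50030325, which is 58.8 times as many. Intervals below are exact 95% intervals from the counts of summits. They cover counting error only and treat summits as independent, which was not established.

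Myc encodes a transcription factor of growth and proliferation that binds DNA together with its partner Max, and it is regulated by enhancers spread over a long gene-poor stretch. Pvt1 is the long noncoding RNA gene beside it, a frequent site of viral insertion and of rearrangement in tumours. The region of the human genome that corresponds to it is among those most often gained in breast cancer. Of the other listed genes, Trib1 encodes a pseudokinase adaptor that directs C/EBP alpha to degradation, and Sqle encodes squalene epoxidase of cholesterol synthesis. Mtss1 encodes a protein that bends membranes and binds actin, Asap1 an activator of GTP hydrolysis by Arf proteins at focal adhesions, and Ptk2 the focal adhesion kinase. Ndrg1 encodes a protein induced by hypoxia and described as a suppressor of metastasis.

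Summits were present at 7 of the 8 genes and absent at Sqle. Among all protein-coding genes, 60.8% had a summit by the same rule, and among lncRNA genes 51.6%. Most of the 192 summits lay at the long genes, with 54 at Mtss1, 46 at Pvt1, 44 at Asap1 and 32 at Ptk2. Ndrg1 held 12, Myc 2 and Trib1 2. Per length the order was different: Mtss1 had 354 summits per Mb (interval 266 to 461), Ndrg1 238 (123 to 417), Pvt1 198 (145 to 264), Asap1 144 (104 to 193), Ptk2 139.9 (95.7 to 198), Myc 133 (16.1 to 481), Trib1 108 (13.1 to 392) and Sqle 0 (0 to 141). The interval of Mtss1 lay above those of Pvt1, Asap1, Ptk2 and Sqle and overlapped those of Ndrg1, Myc and Trib1. Neighbours in this order overlapped throughout, and the intervals of Myc and Trib1, with 2 summits each, spanned nearly the whole range.

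**Figure D1:**
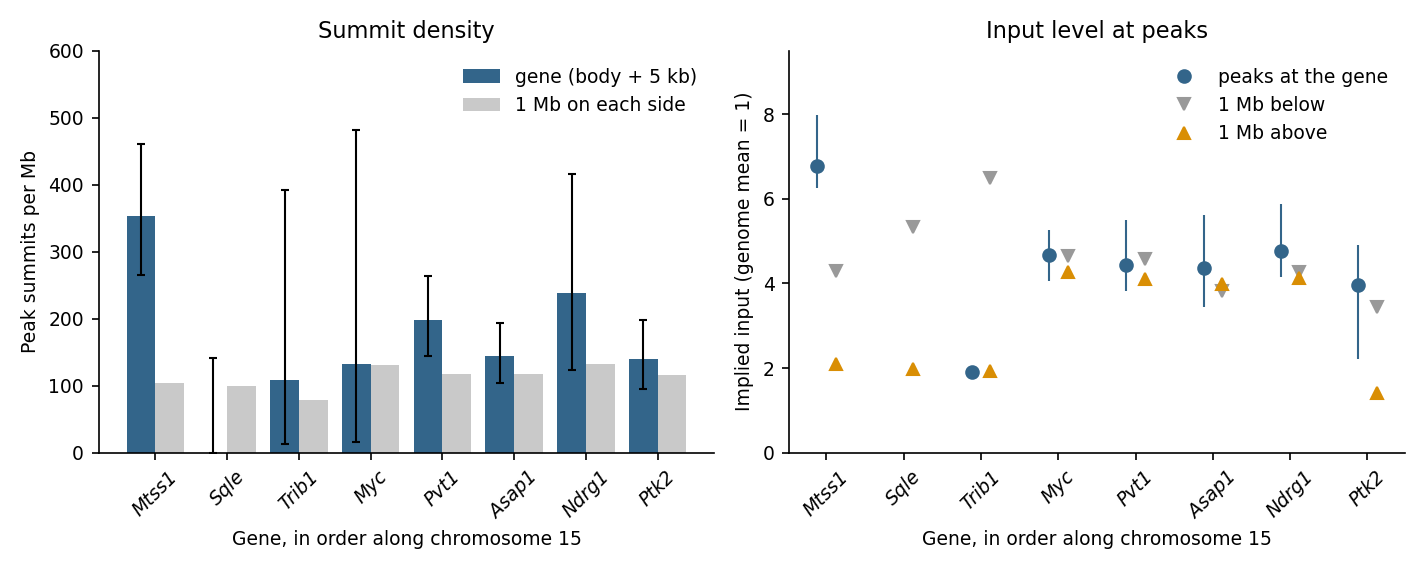
Left, peak summits per Mb at each of the 8 genes (body and 5 kb around it, blue, error bars are exact 95% counting intervals) and in the 1 Mb on each side (grey). Right, implied input of the peaks at the gene (median as a point, lowest to highest as a line) and the medians of the 1 Mb below and above. Mtss1 is highest in both, with 354 summits per Mb and a median implied input of 6.77, and Sqle has no summit and so no input value.

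Taken over the 8 genes, the spans held 186 summits per Mb and their flanks 113, a ratio of 1.65 (interval 1.41 to 1.92). The tags in peaks gave a similar ratio, with 2.17 tags per kb at the genes and 1.28 in the flanks (1.69 times). Mtss1 carried much of this: without it the ratio of summits was 1.38 (interval 1.15 to 1.65). The median peak held 7 tags both at the genes and in the flanks. Peaks of 3 tags, the fewest of any peak, made up 11.98% of the peaks at the genes, 18.5% in the flanks, 31.4% on chromosome 15 and 37.2% on all chromosomes. Peaks of at least 30 tags made up 8.33%, 6.72%, 4.96% and 4.01% of the same sets. The peaks were called by a p cutoff against the input, so these shares are not free of its level. The part of the input level in them was not tested.

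The level of the input differed along with these counts. It was read at each peak as the implied input, the height of the peak at its summit divided by the authors' fold enrichment, in units of the genome mean background. It is the highest of the local backgrounds of the scaled input, is known only at peaks, and is not a count of DNA copies, which were not measured here. Its median was 4.59 at the peaks of the 8 genes, 4.02 in their flanks, 2.37 on chromosome 15 and 1.403 on all chromosomes. The authors' fold enrichment has this input in its denominator, and its median ran the other way: 52.5 at the genes, 63.7 in the flanks, 87.2 on chromosome 15 and 133 on all chromosomes. Only 13 of the 192 peaks had a fold at or above the median of all peaks. Counted over those peaks alone, the density at the genes was 0.794 times that of the flanks. This ratio rests on 13 summits and has no interval, so a change of direction was not established. By tags in those peaks the genes stayed above the flanks, at 1.21 times. The part of the input level in the number of summits was not tested.

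Across the region the input changed in steps. In bins of 50 kb the median implied input was near 2 on both sides of Sqle, where the bin of the gene itself held no summit, and at Trib1. It was mostly near 4 from Myc through Asap1 to Ndrg1, with some bins below that, in places next to each other, the lowest at 2.43 (from 63850001). Between Ndrg1 and Ptk2 it was lower again, with medians of 2.59 and 2.16 in the 1 Mb windows that start at 70 and 71 Mb. It exceeded 5.5 in 2 blocks. The first ran from 58877145 to 59128546 (251 kb, 77 summits, median implied input 6.85) and holds Mtss1 whole. The second ran from 61413752 to 61647858 (234 kb, 57 summits, median 10.3), ended 337 kb below Myc and holds no annotated gene of the table. The 10 summits next below and next above the first block had medians of 2.00 and 2.06, and those next to the second 4.29 and 4.16. Myc itself therefore lay outside the block with the highest input of its 1 Mb window.

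**Figure D2:**
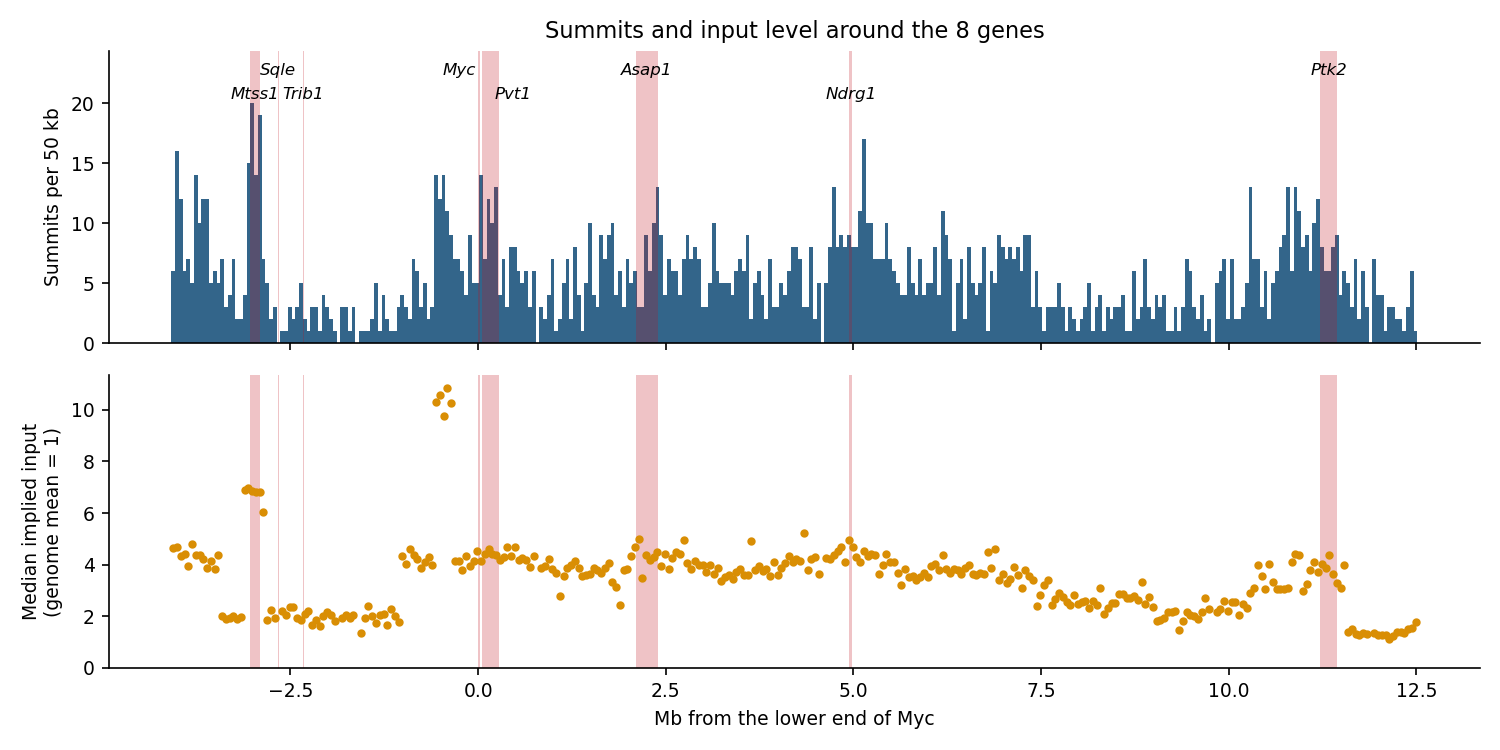
Summits per 50 kb (top) and median implied input of the peaks in each 50 kb bin (bottom, genome mean = 1) against distance in Mb from the lower end of Myc, with the 8 genes shaded. The input stands near 2 at Trib1 and on both sides of Sqle, mostly near 4 from Myc to Ndrg1, at 6.85 in the block around Mtss1 and at 10.3 in the block below Myc, and it drops between Ndrg1 and Ptk2 and again above Ptk2.

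Myc (gene ID 17869, chromosome 15, 61985341 to 61990361) had no summit in its body. Both of its summits lay above its higher end, which by general knowledge of the locus is its 3' side: 1 at 1759 bp (61992120, 9 tags, height 5, fold 73.5) and 1 at 2872 bp (61993233, 5 tags, height 3, fold 34.2). On the lower side, where the Myc promoters lie, the nearest summit was 14114 bp away. With 263 summits in the flanks, 1.98 were predicted for the span of Myc, and the ratio was 1.01 (interval 0.122 to 3.69). By tags the gene lay below its flanks, with 0.932 per kb against 1.72 (0.542 times), from 14 tags in all. The implied input at the 2 peaks was 4.07 and 5.26, within the range seen at Pvt1. Of the 263 flank summits, 57 belonged to the block of high input below Myc, as did 1106 of the 3437 flank tags. Without the block, a comparison chosen after the data were seen, the ratio of summits was 1.14 (interval 0.137 to 4.18). The ratio of tags was not recomputed without it. An enrichment or a lack of summits at Myc was thus not detectable at this depth.

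Between Myc and Pvt1 lie 47.6 kb, which held 13 summits with 108 tags in all. Pvt1 (gene ID 19296, lncRNA, 62037986 to 62260215) held 46 summits with 416 tags, 45 of them in the body and 1 above it. Its flanks predicted 27.2, a ratio of 1.69 (interval 1.21 to 2.33), and 1.98 (1.397 to 2.75) when the block of high input was left out of the flanks. Of lncRNA genes over 100 kb, 19.7% had a density at least 1.5 times that of their flanks. Against the 1 Mb above it the ratio was 2.18 (1.49 to 3.14), and against the 1 Mb below, which includes the block, 1.39 (0.971 to 1.94). With the block included, the tags did not follow the summits to the same degree, with 1.79 per kb at Pvt1 and 1.65 in its flanks (1.09 times). The median peak held 6 tags against 8 in the flanks. The block held 1106 of the 3293 flank tags, and the values of tags were not recomputed without it. Myc and Pvt1 lie in each other's flanks.

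Within Pvt1 the summits were spread along the body, 22 below its midpoint and 23 above. The strongest peak, at 62204370, held 40 tags with a height of 11 and a fold of 150.6, and the next, at 62114988, held 33 tags with the same height and a fold of 136. Its lower end, where transcription starts by general knowledge of the locus, had a summit 325 bp inside the gene (62038311, 6 tags, fold 59.0). The implied input stayed between 3.83 and 5.505 over all 46 peaks, a narrow range beside that of the region. The longest stretch without a summit was 21.6 kb and the median gap between summits 3848 bp, against 8268 bp on chromosome 15 as a whole.

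Trib1 lay in a stretch of input that was low for this region, and the peaks nearest to Sqle on either side belonged to it. Its median implied input of 1.94 was still above the 1.403 of all chromosomes. Trib1 (gene ID 211770, 59648654 to 59657099) had 2 summits of 3 tags each, 1 in the middle of the body (59652920, height 2, fold 60.8) and 1 at 3890 bp below the lower end (59644764, height 2, fold 65.2). The flanks predicted 1.46 (ratio 1.37, interval 0.165 to 5.04), and the ratio of tags was 0.418. Both disappeared when 3-tag peaks were left out. Sqle (gene ID 20775, 59315092 to 59331193) had none, where its flanks predicted 2.58, and the interval of a count of 0 reaches 3.69. The nearest summits lay 40331 bp below and 68152 bp above the gene. The flanks of both genes contain the block around Mtss1, and without it those of Sqle held 69.2 summits per Mb and those of Trib1 46.3. The ratio of summits at Trib1 was then 2.34 (interval 0.279 to 8.73), and over the other choices of flanks it ran from 0.988 with 2 Mb to 2.46 with 500 kb. Its ratio of tags was not recomputed without the block, which held 999 of the 1555 tags in the flanks of Trib1. Over all chromosomes, 43.2% of protein-coding genes with a body of up to 20 kb had a summit, so lacking one was common at such lengths. That share does not allow for the denser flanks of Sqle, as autosomal windows of 1 Mb held a median of 28 summits.

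Mtss1 (gene ID 211401, 58941234 to 59083956) had the largest number of summits of the 8 genes in spite of being shorter than Pvt1, Asap1 and Ptk2. It held 54 summits with 686 tags, where its flanks predicted 15.8, a ratio of 3.42 (interval 2.48 to 4.63), and its tags were 4.33 times as dense. Of the 2425 protein-coding genes over 100 kb with a summit in their flanks, 19.6% reached 1.5 times and 24.1% lay at or under 1 / 1.5, and Mtss1 was rank 21 by this ratio. Asap1 and Ptk2 were in neither class. The median implied input was 6.77 at Mtss1 (6.24 to 7.99) and 4.14 in its flanks, 1.63 times. Such a step of at least 1.5 times was rare, at 0.851% of 2349 long genes with peaks. Inside the block of like input the contrast was smaller: the 98.7 kb of the block outside Mtss1 and its 5 kb margins held 23 summits (233 per Mb, median implied input 7.07), so that Mtss1 had 1.52 times their density (interval 0.915 to 2.59). This comparison was chosen after the data were seen.

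The peaks of Mtss1 had low folds at high tag counts. Its strongest, at 59017302, held 72 tags with a height of 18 and a fold of 167 (implied input 6.47), rank 433 by tags but 27406 by fold among 77713 peaks. The same height at the genome mean input would give a fold of 1077. The next were at 59020002 (47 tags, fold 119), 58976946 (46 tags, fold 67.2), 58961997 (43 tags, fold 99.3) and 58985452 (42 tags, fold 99.3). All 5 peaks of at least 30 tags lay between 20.8 and 78.8 kb from the lower end. Cut into 5 equal parts from the lower end, the body held 12, 11, 12, 6 and 9 summits, with medians of the implied input from 6.51 to 6.91. Of its summits, 1 lay 547 bp inside the lower end (58941781, 3 tags, fold 25.01), and 1 below the gene fell in its neighbour Ndufb9. The median gap between summits was 2115 bp.

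**Figure D3:**
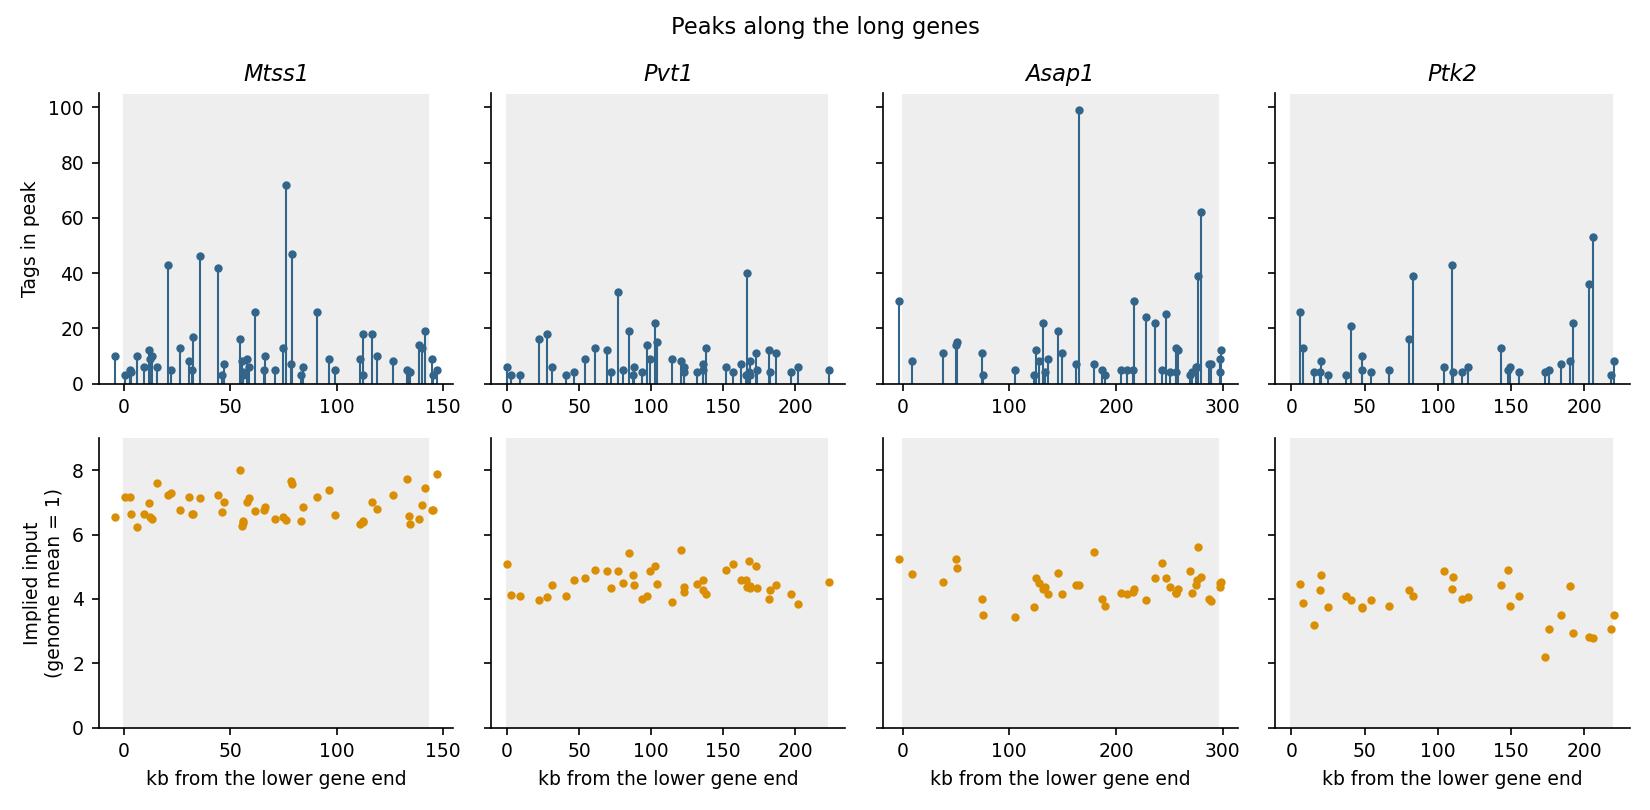
Tags in each peak (top) and implied input at each peak (bottom, genome mean = 1) against the distance of the summit in kb from the lower end of Mtss1, Pvt1, Asap1 and Ptk2, with the gene body in grey. Mtss1 lies between 6.24 and 7.99 along its whole length, Asap1 has the peak with the most tags (99), and in Ptk2 the input is lower near the higher end.

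Asap1 (gene ID 13196, 64086840 to 64382941), the longest of the 8, held 44 summits with 619 tags, 40 of them in the body. The flanks predicted 35.8, a ratio of 1.23 (interval 0.869 to 1.70), and both sides gave nearly the same value, 1.25 below and 1.21 above. Its tags were 1.53 times as dense as those of the flanks, and the median peak held 8 tags against 6. The peak with the most tags of all 8 genes lay here, at 64252150 (99 tags, height 16, fold 216, rank 208 by tags), and held 16.0% of the tags of Asap1. The highest peak was at 64366225 (height 19, 62 tags, fold 242), with a peak of 39 tags close by at 64364075.

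The summits of Asap1 were uneven along its body, with 14 below its midpoint and 26 above. Of 5 equal parts of the body, the part from 59.2 to 118 kb above the lower end held 3 summits and 19 tags, at an implied input of 3.49, and the uppermost 14 summits and 197 tags, at 4.40. The longest stretch without a summit was 29.6 kb. A summit of 9 tags lay 987 bp above the higher end (64383928, fold 53.4), and one 3321 bp below the lower end held 30 tags. Of the summits, 1 fell inside 1700010G06Rik, a lncRNA gene that overlaps Asap1, and cannot be assigned to either.

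Ptk2 (gene ID 14083, 73205102 to 73423820) held 32 summits with 398 tags. The flanks predicted 26.6, a ratio of 1.20 (interval 0.803 to 1.74), and its tags were 1.53 times as dense. The 2 sides differed: the ratio was 0.880 (0.582 to 1.29) against the 1 Mb below, at a median implied input of 3.45, and 1.89 (1.21 to 2.90) against the 1 Mb above, at 1.403. Within the gene the implied input had a median of 4.07 over the lower 175 kb of the body and of 3.08 over the 43.7 kb above that. It was 3.44 in the 150 kb above the gene and 1.34 from there to 1 Mb. The density was 137 summits per Mb in the lower part of Ptk2, 160.0 in its upper part, 107 in the next 150 kb and 68.2 beyond.

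The peaks of Ptk2 had the highest folds of the 8 genes, 7 of them at or above the median fold of all peaks. The highest was at 73411044, 12.8 kb inside the higher end, with 53 tags, a height of 15 and a fold of 321 at an implied input of 2.80. A peak of the same height at 73315123, with 43 tags, had a fold of 208 at an implied input of 4.32. The others of at least 30 tags were at 73287954 (39 tags, fold 205) and 73408472 (36 tags, fold 211). A summit of 3 tags lay 298 bp inside the higher end (73423522, fold 38.9). The body of the annotated microRNA gene Mir151 inside Ptk2 held no summit, though 3 summits of Ptk2 lay within 5 kb of it, the nearest at 73253625 (10 tags). Another 3 summits, among them that at 73315123, lay inside Gm41344, an overlapping lncRNA gene.

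Ndrg1 (gene ID 17988, 66929318 to 66969641) held 12 summits with 92 tags, where its flanks predicted 6.64, a ratio of 1.81 (interval 0.922 to 3.21). The ratio was 2.00 (1.01 to 3.63) against the 1 Mb below and 1.64 (0.830 to 2.96) against the 1 Mb above. Among all 21420 protein-coding genes with flank summits, 26.7% reached 1.5 times and 46.8% lay at or under 1 / 1.5. Ndrg1 was in the first class, Sqle in the second, and Myc and Trib1 in neither, though Trib1 passed 1.5 times with the flanks of 500 kb, without the block, or without the other listed genes (1.90), and Ndrg1 fell just under it with flanks of 500 kb (1.49). The peaks of Ndrg1 were weak. Its strongest, at 66948622, held 17 tags with a height of 7 and a fold of 101, and the next, at 66942214, 15 tags with a fold of 54.4. Its tags were 1.15 times as dense as those of the flanks. There were 9 summits in the body and 3 below the lower end, and none lay within 1 kb of either end. The implied input ran from 4.14 to 5.88, with 4.26 in the 1 Mb below and 4.13 above.

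Peaks of at least 30 tags occurred at Mtss1 (5), Asap1 (5), Ptk2 (4) and Pvt1 (2), and at none of the 4 shorter genes. Among protein-coding genes over 100 kb, 21.6% had such a peak, and among all protein-coding genes 6.01%. By height, which does not contain the input, the leading peaks of Asap1 and Mtss1 were rank 224 and 300 of 77713, whereas by fold the same peaks were rank 12369 and 27406. The 192 summits lay mostly inside the genes, 176 (91.7%) in a body and 16 in the 5 kb around one. Within 1 kb of a gene end lay 4, or 2.08% (exact binomial interval 0.570 to 5.25), at Mtss1, Pvt1, Asap1 and Ptk2 with 1 each, and positions of that kind made up 3.11% of the spans. Each held 3 to 9 tags. At the 5 kb limit, the last summits counted were those of Mtss1 at 4336 bp (10 tags) and 4492 bp (5 tags), and the first not counted were at 5742 bp and 5922 bp above Mtss1 (4 tags each).

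In windows of 1 Mb, the 16 windows from 58 to 74 Mb held 39 to 158 summits, where 2401 autosomal windows had a median of 28. The window that starts at 58 Mb and holds the lower part of Mtss1 was rank 3, that of Myc (134 summits) rank 11. Windows of higher input held more summits: 6 windows with a median implied input from 4 to 5 held 127 to 158 summits, 6 from 3 to 4 held 91 to 136, and 3 from 2 to 3 held 59 to 82. The remaining one, from 60 to 61 Mb, held 39 at 2.00. Outside the region, 2 autosomal windows lay between 4 and 5, both on chromosome 15, and held 133 and 135. The 12 between 3 and 4 held a median of 103.5 (16 to 145), and the 37 between 2 and 3 a median of 80.0 (9 to 125). Windows of the region thus overlapped in number with windows of like input elsewhere.

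**Figure D4:**
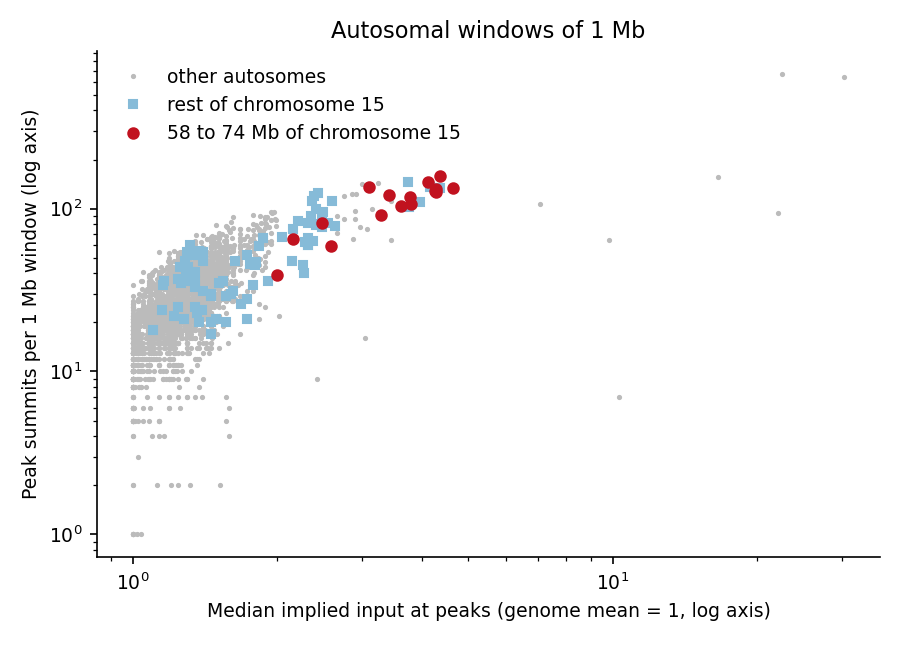
Peak summits per 1 Mb window against the median implied input of its peaks, both on log axes, for the autosomes. The windows from 58 to 74 Mb of chromosome 15 (red) hold 39 to 158 summits and lie among other windows of like input. These are on chromosome 15 (blue) and on other autosomes (grey), but between an input of 4 and 5 on chromosome 15 only.

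Genes that work with the 8 but lie elsewhere were counted by the same rule, and every one of the 95 listed genes was found in the table. Of 20 genes of the Myc network, 14 (70.0%) had a summit, beside 60.8% of all protein-coding genes. The highest folds were at Max, the partner of Myc (739, 68 tags), Zbtb17, which encodes the Myc-binding repressor Miz-1 (482), Mga (462) and Mnt (409), 2 further proteins that bind Max. Of 23 genes of cholesterol synthesis and its control, 14 (60.9%) had one, with high folds at Mvk (897), Tm7sf2 (693) and Fdps (314). Of 25 focal adhesion genes, 22 (88.0%) had one, led by Arhgap26 (778), Itgav (532), Pxn (464) and Pak1 (412). Of 21 genes for Arf GTPase-activating proteins, 19 (90.5%) had one, led by Arap1 (733), Agap1 (603), Acap3 (536) and Agap3 (522). All 6 paralogs of Trib1, Ndrg1 and Mtss1 had one, the highest at Ndrg3 (259), Mtss2 (212), Ndrg2 (164) and Ndrg4 (164).

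The lists of focal adhesion and Arf genes had median lengths of 92.9 and 49.0 kb, against 17.3 kb for all protein-coding genes. Of protein-coding genes with a body of up to 20 kb, 43.2% had a summit. The medians of the implied input in the 5 lists were 1.28 to 1.35, though Itgb3 of the focal adhesion list stood at 25.1. These medians were below the 3.96 to 6.77 of the listed genes of chromosome 15 with peaks other than Trib1, which had 1.90. Folds of the partner genes and of the 8 genes are therefore not on a like footing: the 68-tag peak of Max, at an implied input of 1.295, had a fold of 739, and the 99-tag peak of Asap1, at 4.43, one of 216.

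The protein-coding genes outside the region most like Myc and Ptk2 in summits per Mb and in implied input were found by the distance between their log2 values, among genes with at least 3 summits and a span within 1.5 times. With 1 list there are no samples over which a pattern could be compared. For Ptk2 the nearest of 936 genes were Col14a1 (distance 0.122), Sntb1 (0.124), Arhgap42 (0.299), Deptor (0.364) and Pknox2 (0.556). Of these, Col14a1, Sntb1 and Deptor are on chromosome 15 and the other 2 on chromosome 9. For Myc, which itself has 2 summits, the nearest of 401 were Sox10 (0.383), Mtnr1b (0.390), Zfp623 (0.411), Zfp707 (0.519) and Nol12 (0.539), all on chromosome 15 but Mtnr1b, which is on chromosome 9.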

How the data were processed

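The 4 libraries of 4T1-TGL cells were the Malat1 pull-downs Even and Odd, the Lacz pull-down and the input. Their DNA was sequenced as single reads of 76 nt, per the labels' protocols. Peaks were called with MACS 1.4.4 on 1 merged treatment against 1 input, with a p cutoff of 1e-05, a fragment length of 53 bp, an effective genome size of 2.7 gigabases and the larger data set scaled to the smaller, per the file headers. The headers also give a tag size of 25 bp, and both it and the fragment length are shorter than the 76 nt reads. Positions refer to mm10 (GRCm38), as named in the submitters' processing notes. The aligner was not given in the sources used here. The deposited tags are whole-number counts of treatment tags in the peak interval. The deposited fold enrichment is a ratio, with the height at the summit over the largest of the local input backgrounds. As deposited, the score is the negative log10 of the p from MACS, times 10. The deposited summit height is a signal, the pileup of tags at the summit. The authors' false discovery rate, deposited as a percent, is 0 in all 77823 cases. Position, score and summit were identical in the 3 lists for all 77823 peaks.

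The genome mean background was 851227 tags times the fragment length over the effective genome size, 0.0167 tags. Gene starts and ends came from the RefSeq table of GRCm38.p6, which gives no strand or exon, so exons, introns and UTRs were not used here. The 110 peaks on other sequences were left out. Flanks pooled over the 8 genes exclude the spans of all 8. Counts were made in Python 3.11.15 with pandas 2.3.3, and intervals with SciPy 1.17.1 (exact Poisson for counts, Clopper-Pearson for ratios and shares). The density ratio was checked on simulated data. The 8 genes, the lists of related genes and the alternatives were chosen with earlier results of these data known. Named peaks are those with the most tags or the highest fold of each gene (up to 3 each, all where a gene has 5 or fewer), together with peaks of at least 30 tags or near a gene end. In each list up to 4 genes of highest fold are named, and 1 of them is not reported here. Alternatives were stricter peak selections, other assignments of peaks to genes, other flanks, and leaving out each gene. No sequence is printed.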

Additional observations from a re-analysis of the deposited data

How the results depend on the processing

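Selecting peaks at or above the median fold of all peaks (133) removes peaks where the input is high, by the construction of the fold, and it changed most values: it left 13 summits at 4 of the 8 genes, a median fold of 204, a median implied input of 4.32, 0% of summits within 1 kb of a gene end, and a density over the flanks of 0.794 in place of 1.65. Under the same selection the density over the flanks was 0.468 at Mtss1 (1 summit), 0.861 at Pvt1 (2 summits) and 0.560 at Asap1 (3 summits). Ndrg1, Myc and Trib1 kept no summit. Of the genes that kept one, only Ptk2 stayed above 1 (1.18, 7 summits). The counts are small and these ratios have no interval, so a difference from 1 was not established. Selecting by score at or above the median left 92 summits with a median fold of 82.4. Leaving out Mtss1 gave a pooled density ratio of 1.38. The other values that answer a comparison, 55 of 64 over all alternatives, stayed within their interval or within 1.5 times. Flanks without the spans of the other listed genes were computed for single genes only, since the pooled flanks already exclude them. No paired analysis was possible because each group is 1 library and the peak list is merged. At this depth, counts of 2 or fewer summits at a gene do not distinguish it from its flanks.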

Other observations

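Between the lower end of Mtss1 and the higher end of Ptk2 (14.5 Mb) lie 31 other protein-coding genes, of which 27 had a summit (87.1%), and 47 other lncRNA genes, of which 42 did (89.4%). Over all chromosomes the shares were 60.8% and 51.6%, and the protein-coding genes of the region were longer, with a median of 54.4 kb against 17.3 kb. The most summits were at Trappc9, a subunit of a vesicle tethering complex (84, density 1.70 times its flanks, implied input 3.25), followed by the potassium channel gene Kcnq3 (37), the thyroglobulin gene Tg (37), the adenylyl cyclase gene Adcy8 (36) and the collagen gene Col22a1 (31). Trappc9 thus held more summits than any of the 8 listed genes, over a body of 471619 bp. The highest folds were at Gsdmc3, a gasdermin gene (686), the lncRNA gene Gm30159 (371), the zinc finger gene Zfat (328), Efr3a (323) and the lncRNA gene Gm31342 (309), where a peak of 106 tags lay.

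The block of highest input in the region, 61413752 to 61647858, had a median implied input of 10.3 and 243 summits per Mb with 1106 tags. From its upper edge to the lower end of Myc the density was 121 per Mb at an implied input of 4.16, and from Myc to the higher end of Pvt1 it was 211 per Mb at 4.37. The 2 stretches had nearly the same input and different densities of summits, a difference noticed in the data and not tested. Their tags in peaks were nearly equal in number, 522 over the 337 kb below Myc and 519 over the 275 kb from Myc to Pvt1.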
